A study of Mus musculus with 9 samples.

Results

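The BCL2 family decides whether a cell commits to death through its mitochondria. Anti-apoptotic members (Bcl2, Bcl2l1, Mcl1) hold the effectors Bax and Bak1 in check, and BH3-only members (Bbc3, Pmaip1, Bcl2l11, Bid) respond to stress by binding the anti-apoptotic members or by engaging the effectors directly. Activated Bax and Bak1 permeabilise the outer mitochondrial membrane and release cytochrome c, which sets off the caspases. Bnip3 is a hypoxia-responsive relative at the mitochondrial membrane that is best known as a receptor for mitophagy, the removal of mitochondria by autophagy. These 10 genes were chosen by symbol, and all 10 were found among the 50813 genes of the count table. All 10 passed the filter on low counts that left 14593 genes for testing.

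The data were 9 bulk RNA-seq libraries of Lewis lung carcinoma (LLC) cells, a mouse lung cancer line kept in culture, with 3 libraries each of the WT line, CD47 KO clone E3 and CD47 KO clone E5. CD47 is a surface receptor that signals "do not eat me" to macrophages. The study made the KO lines by delivering Cas9 ribonucleoproteins to LLC cells and expanding single cells, so each KO line is 1 clone, and genotype and clone cannot be told apart within a line. All lines were grown in DMEM with 10% fetal bovine serum, and no drug or death stimulus is given in the labels. Total counts per library ran from 44257404 to 55095219. Because RNA was taken from bulk cultures, fewer expressing cells and less RNA per cell cannot be told apart.

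Expression is given as CPM, each library's counts scaled to its size by the TMM method. Cd47 stood at 187, 179 and 182 CPM in the WT libraries, 47.4, 36.7 and 49.6 in clone E3, and 15.5, 18.6 and 18.1 in clone E5. It was thus lower in all 6 libraries labelled as CD47 KO. The epithelial markers Epcam, Nkx2-1, Sftpc and Scgb1a1 were at 0 in every library, whereas the keratins Krt8 and Krt18 were expressed. Of 5 macrophage markers, 4 were at or under 3 counts in every library, and endothelial markers summed to at most 0.253 CPM. The summed epithelial markers ran from 451 to 459 CPM in WT, 128 to 199 in E3 and 896 to 958 in E5, and the summed fibroblast markers from 47.6 to 62.8, 44.4 to 76.3 and 17.6 to 20.8 CPM. The epithelial sum differed between all lines, whereas the fibroblast sum was lower in E5 and overlapped between WT and E3. That sum hid opposite changes in E3 against WT. The log2 fold change was -3.13 for Dcn, but 0.97 for Pdgfra, 0.99 for Col1a1 and 1.41 for Col1a2. Each of these had an FDR under 0.05 by edgeR's quasi-likelihood test. Lum had a value of 1.25 and did not pass (FDR 0.102). The part of these markers in the results was not tested.

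One library stood apart. The counts of E3 replicate 3 differed from the other 2 E3 libraries with chi-square values per degree of freedom of 192 and 232, against 4.82 to 39.1 for every other pair within a line. In this library, short genes were high and long genes low relative to the mean of the other 2 E3 libraries. The median deviation by canonical transcript length was 0.34 on the log2 scale for 3022 genes with a transcript under 1500 bases and -0.54 for 3271 genes over 5000 bases (Spearman -0.62 across 14538 genes, which are not independent replicates). Among the family, Bax has the shortest canonical transcript (976 bases) and Bcl2 the longest (7247 bases), so values without this library are given for the family genes whose calls it changed.

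What unites most of the family is the BH3 motif, the short helix through which its proteins bind each other. Its core codes for leucine, 3 residues of any kind, glycine or alanine, and aspartate. The canonical coding sequences of 9 of the 10 genes were searched for it, and 8 held it exactly once. Bnip3 held no match in its coding letters, and Pmaip1 was not searched. The 42 bases around each core follow, on the coding strand of the GRCm39 genome with GENCODE vM39 transcripts, with the 18 bases of the core in capitals. The first 3 lines are the anti-apoptotic genes, the next 2 the effectors and the last 3 the BH3-only genes.
Bcl2: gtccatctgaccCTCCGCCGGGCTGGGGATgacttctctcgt
Bcl2l1: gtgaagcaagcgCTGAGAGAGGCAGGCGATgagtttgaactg
Mcl1: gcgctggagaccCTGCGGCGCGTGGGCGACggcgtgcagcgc
Bax: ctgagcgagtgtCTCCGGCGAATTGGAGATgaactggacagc
Bak1: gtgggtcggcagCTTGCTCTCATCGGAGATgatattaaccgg
Bcl2l11: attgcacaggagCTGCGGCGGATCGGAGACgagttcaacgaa
Bid: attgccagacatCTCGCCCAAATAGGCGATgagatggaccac
Bbc3: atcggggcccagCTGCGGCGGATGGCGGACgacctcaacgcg

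The core began at codon 94 in Bcl2, 90 in Bcl2l1, 194 in Mcl1, 63 in Bax and 76 in Bak1. In the BH3-only genes it began at codon 150 in Bcl2l11, 90 in Bid and 141 in Bbc3. With the stop codon, the coding sequences had 711, 702, 996, 579 and 630 bases in the first 5 genes. They had 591 bases in Bcl2l11, 588 in Bid and 582 in Bbc3. In 7 of the 8 genes the fifth codon coded for glycine, and in Bbc3 it was the alanine codon GCG. Each core lay within a single coding exon, for instance at chr6:120874247-120874288 in exon 4 of 6 of Bid and at chr7:16047686-16047727 in exon 3 of 4 of Bbc3. The same core letters occurred in 24.1% of 21483 canonical coding sequences, so a match alone does not mark a family member.

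To ask how loss of CD47 went with the machinery of mitochondrial apoptosis, each clone was compared with WT and the clones with each other. At an FDR under 0.05 (edgeR's quasi-likelihood test, adjusted over all genes tested), 3 of the 10 genes changed in clone E3: Pmaip1 rose, and Bid and Bbc3 fell. Of all genes tested, 30.5% changed in this comparison, 15.7% rising and 14.7% falling. In clone E5, Bcl2l1 fell and the other 9 did not pass, against 20.6% of all genes (8.96% rising and 11.7% falling). Between the clones, 4 of the 10 differed, against 31.9% of all genes: Bid and Bbc3 were higher in E5 (14.7% of all genes), and Pmaip1 and Bcl2l1 were lower (17.2%). With 10 genes, the share that passed was close to the background in E3, below it in E5 and above it by 1 gene between the clones. Without E3 replicate 3, 5 of the 10 passed in E3, where Mcl1 fell and Bak1 rose besides the 3 named, against 43.2% of all genes. In E5, 3 then passed (Bcl2l1, Bak1 and Bid, 42.0% of all genes), and between the clones the same 4 (44.1%).

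With the added threshold of an absolute log2 fold change above 1, Pmaip1 and Bid passed in E3, against 9.82% of all genes, and the same 2 passed between the clones, against 11.0%. In E5 Bcl2l1 lay within it, and 8.21% of all genes passed it. The CPM of 6 of the 10 did not overlap between E3 and WT that of 4 between E5 and WT, and that of 5 between the clones. Over all genes tested, 45.4%, 55.4% and 44.6% were without overlap. The median log2 fold change of the 10 was -0.07 in E3 and -0.02 in E5, beside 0.01 and -0.00231 for all genes tested. None of the 10 passed in both clones against WT, as 10.8% of all genes did. Without E3 replicate 3, Bak1 and Bid passed in both, Bak1 rising in each and Bid falling in E3 and rising in E5. In that setting 43.2% of all genes passed in E3 and 42.0% in E5. The share that passed in both was not counted there, so the 10.8% is no measure for it.

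**Figure D1:**
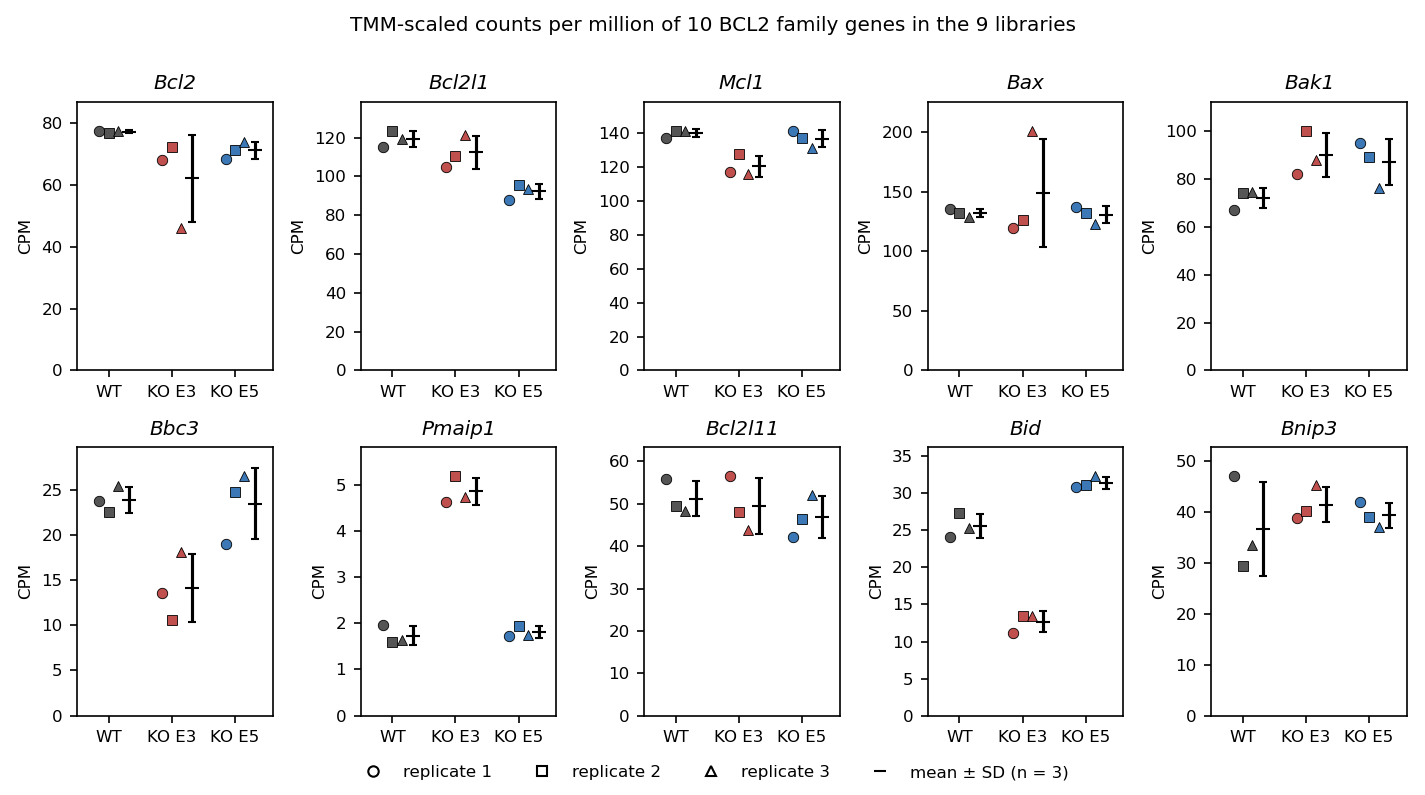
TMM-scaled CPM (y axis of each panel, from 0) of the 10 genes in 3 WT, 3 KO E3 and 3 KO E5 libraries, with symbols for the replicates and black bars for the mean ± SD (n = 3). Pmaip1 was highest, and Bid and Bbc3 lowest, in all 3 E3 libraries, and the E3 spread of Bax and Bcl2 came from replicate 3.

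Bcl2l1 encodes BCL-XL, an anti-apoptotic protein of the outer mitochondrial membrane, and lies at chr2:152622588-152673648 on the minus strand. Its level was 115, 124 and 119 CPM in WT, 105, 111 and 122 in E3, and 87.9, 95.7 and 93.4 in E5. The E5 libraries were all below the other 6. Bcl2l1 fell by 22.7% in E5 (log2 fold change -0.37 ± 0.09 SE, 95% interval -0.57 to -0.17, FDR 0.0161). Its difference between the clones was -0.28 ± 0.09 (FDR 0.037), and in E3 the log2 fold change was -0.09 ± 0.09 (FDR 0.505). The fall in E5 was near the threshold. Its FDR was 0.0805 without WT replicate 2, 0.0587 without WT replicate 3, 0.0714 without E5 replicate 1 and 0.0507 without E5 replicate 2, with log2 fold changes from -0.40 to -0.34. The difference between the clones did not pass when any 1 WT or any 1 E5 library was left out (FDR 0.059 to 0.12).

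Bcl2 itself, the founding anti-apoptotic member (chr1:106465908-106642004, minus strand), had 77.2, 76.6 and 77.4 CPM in WT. It had 67.8, 72.3 and 45.9 CPM in E3 and 68.3, 71.3 and 73.7 in E5. All 6 KO libraries were below all 3 WT libraries, a one-sided placement seen in 21.2% of all genes tested, but neither clone passed. The log2 fold change was -0.31 ± 0.15 in E3 (95% interval -0.64 to 0.01, FDR 0.136) and -0.12 ± 0.15 in E5 (-0.44 to 0.21, FDR 0.637). The lowest value was that of E3 replicate 3, and without it the E3 log2 fold change was -0.14. Without E3 replicate 2, the E3 value was -0.44 (FDR 0.0498).

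Mcl1 encodes a short-lived anti-apoptotic protein that many tumour cells depend on, at chr3:95566099-95570487 on the plus strand. Its level was 137, 141 and 141 CPM in WT, 117, 128 and 116 in E3, and 141, 137 and 131 in E5. The E3 libraries lay below the other 6, with a log2 fold change of -0.22 ± 0.08 (95% interval -0.40 to -0.03, FDR 0.077). In E5 the value was -0.03 ± 0.08 (FDR 0.824). Without E3 replicate 3 the E3 log2 fold change was -0.19 with an FDR of 0.0318, and without E3 replicate 2 it was -0.26 with an FDR of 0.0487.

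The effector Bax (chr7:45111121-45116322, minus strand) had 136, 133 and 129 CPM in WT and 137, 133 and 123 in E5. In E3 it had 120, 126 and 201 CPM, the last being replicate 3. The E3 log2 fold change of 0.17 ± 0.17 (95% interval -0.21 to 0.55, FDR 0.499) turned to -0.11 (FDR 0.217) without that library. In E5 it was -0.02 ± 0.17 (-0.40 to 0.36, FDR 0.955). A change in Bax was therefore not detectable in either clone.

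Bak1, the second effector (chr17:27238784-27247983, minus strand), had 67.2, 74.0 and 74.6 CPM in WT, 81.9, 100 and 88.1 in E3, and 95.1, 89.2 and 76.4 in E5. All 6 KO libraries lay above the WT libraries, although the margin was small for E5 replicate 3. The log2 fold change was 0.32 ± 0.11 in E3 (95% interval 0.07 to 0.58, FDR 0.0544) and 0.27 ± 0.11 in E5 (0.02 to 0.53, FDR 0.122). Without E3 replicate 3, both clones passed, at 0.34 (FDR 0.0205) and 0.28 (FDR 0.0316). Without E3 replicate 1, E3 alone passed, at 0.39 (FDR 0.0452). Ggnbp1, on the opposite strand, overlaps the whole gene and had 138 to 263 counts, against at least 3355 for Bak1.

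Among the BH3-only genes, Bid had the largest fall. Its protein is cut by caspase-8 and so carries death receptor signals to the mitochondria. Bid (chr6:120868891-120893814, minus strand) stood at 24.1, 27.3 and 25.3 CPM in WT, at 11.1, 13.5 and 13.5 in E3, and at 30.8, 31.1 and 32.4 in E5. The 3 lines did not overlap. Bid fell to 0.496 of the WT level in E3 (log2 fold change -1.01 ± 0.11, 95% interval -1.25 to -0.78, FDR 0.000103). In E5 the value was 0.30 ± 0.10 (0.07 to 0.53, FDR 0.069), and E5 was 2.48-fold above E3 (1.31 ± 0.11, FDR 1.04e-05).

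The E3 fall of Bid and the gap between the clones passed whichever library was left out, the E3 log2 fold change staying from -1.06 to -0.93. The E5 value passed without E3 replicate 1 (0.29, FDR 0.0403) and without E3 replicate 3 (0.30, FDR 0.0105). Bcl2l13, on the opposite strand, shares 913 bases with Bid by the coordinates of the count table. It had 68.5, 74.3 and 46.8 CPM in E3 and 95.5, 92.1 and 89.4 in E5, and was higher in E5 than in E3 as well. Of the 9 genes tested within 500 kb of Bid, 6 were higher and none lower in E5 than in E3, with a median log2 fold change of 0.55. Of all genes, 14.7% were higher and 17.2% lower in this comparison. Against WT, the median of these neighbours was -0.28 in E3 and 0.16 in E5. None of them rose in either clone, while 3 fell in E3 and 2 in E5 (14.7% and 11.7% of all genes). The part of the overlap and of the neighbourhood in the Bid values was not tested.

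Bbc3 encodes PUMA, a direct p53 target that binds every anti-apoptotic member, at chr7:16042318-16052130 on the plus strand. It had 23.7, 22.6 and 25.5 CPM in WT, 13.6, 10.6 and 18.1 in E3, and 19.0, 24.8 and 26.6 in E5. All 3 E3 libraries were below the other 6, with the highest of them, replicate 3, close to the lowest of E5. Bbc3 fell to 0.59 of the WT level in E3 (log2 fold change -0.76 ± 0.19, 95% interval -1.18 to -0.35, FDR 0.0113). This call was kept whichever library was left out, with log2 fold changes from -0.98 to -0.60. In E5 it was -0.03 ± 0.18 (-0.44 to 0.38, FDR 0.94). The clones differed by 0.73 ± 0.19 (FDR 0.0129), which became 0.64 with an FDR of 0.0541 without E5 replicate 3.

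Pmaip1 encodes NOXA, a BH3-only protein that binds mainly MCL1 and is induced by p53 and by stress. It lies on chromosome 18 and had the lowest counts of the 10, from 76 to 246 per library. It had 1.96, 1.60 and 1.65 CPM in WT and 1.72, 1.95 and 1.74 in E5, but 4.64, 5.20 and 4.75 in E3. All 3 E3 libraries were above the other 6. Pmaip1 rose 2.80-fold in E3 (log2 fold change 1.48 ± 0.15, 95% interval 1.15 to 1.81, FDR 7.73e-05). In E5 the value was 0.05 ± 0.15 (-0.29 to 0.39, FDR 0.848), and the clones differed by -1.43 ± 0.15 (FDR 5.78e-05). The E3 rise and the gap between the clones passed whichever library was left out.

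Bcl2l11 encodes BIM, a BH3-only protein controlled by FOXO factors and by ERK (chr2:127967958-128004467, plus strand). It had 55.9, 49.5 and 48.2 CPM in WT, 56.6, 48.1 and 43.7 in E3, and 42.2, 46.5 and 52.1 in E5. The lines overlapped. The log2 fold change was -0.05 ± 0.12 in E3 (95% interval -0.32 to 0.22) and -0.13 ± 0.12 in E5 (-0.40 to 0.15), and neither passed (FDR 0.795 and 0.53).

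Bnip3 (chr7:138492565-138511235, minus strand) varied most of the 10 among the WT libraries, at 47.0, 29.3 and 33.5 CPM. It had 38.7, 40.1 and 45.2 CPM in E3 and 42.0, 38.9 and 37.1 in E5, all 6 values within the WT range. The log2 fold change was 0.18 ± 0.16 in E3 (95% interval -0.18 to 0.53, FDR 0.44) and 0.10 ± 0.16 in E5 (-0.25 to 0.45, FDR 0.707). WT replicate 1 held the highest value, and without it E3 passed at 0.39 (FDR 0.0491) while E5 did not.

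**Figure D2:**
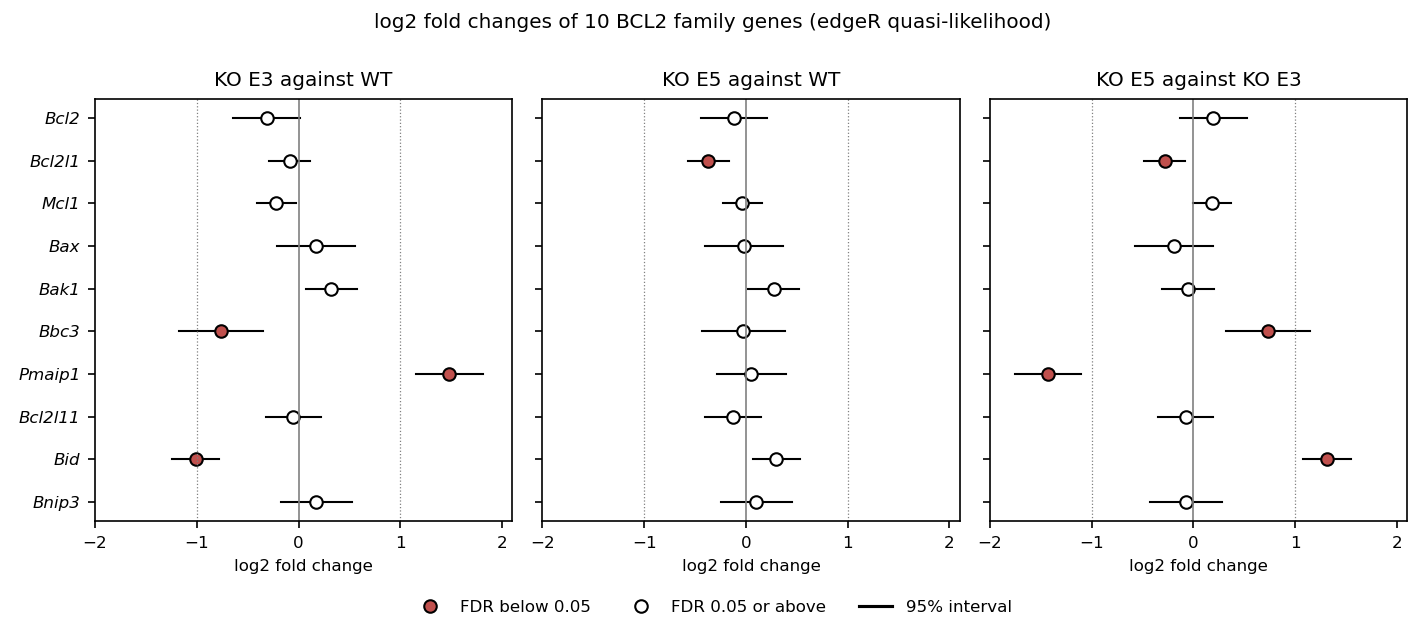
log2 fold changes (x axis) of the 10 genes with 95% intervals for E3 against WT, E5 against WT and E5 against E3, filled where the FDR was below 0.05. Pmaip1, Bid and Bbc3 were filled in E3 and between the clones, and Bcl2l1 was filled in E5 and between the clones.

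**Figure D3:**
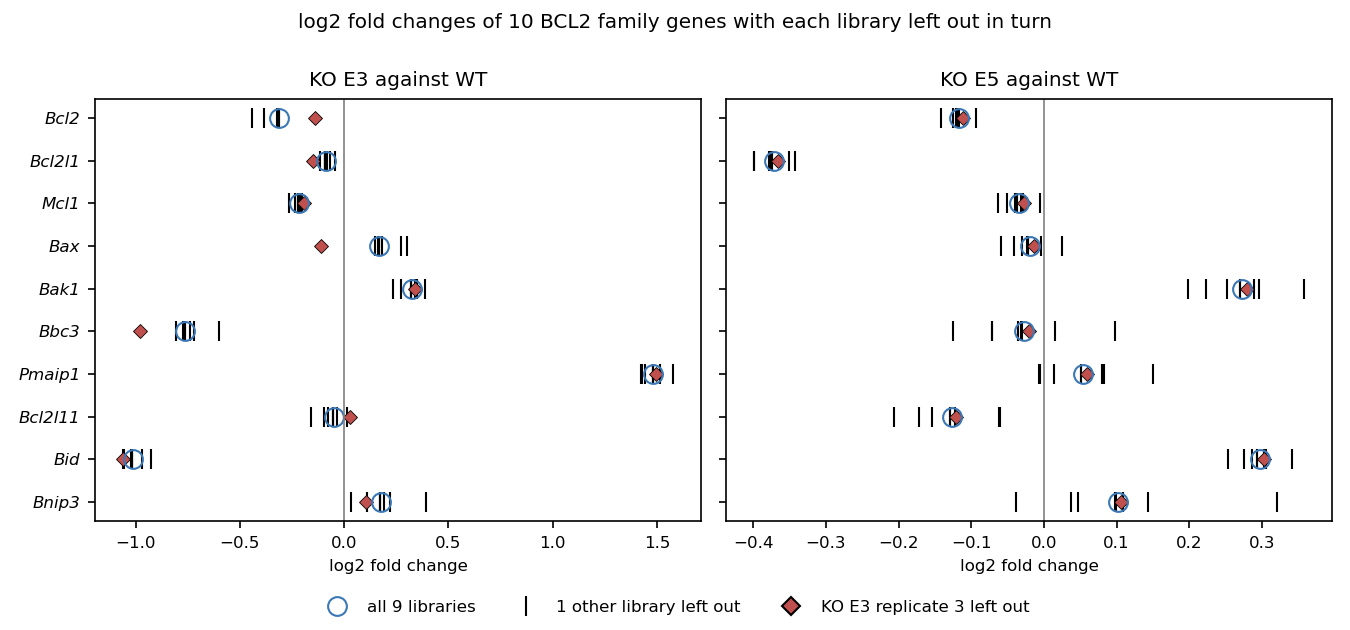
log2 fold changes (x axis) of the 10 genes against WT with all 9 libraries (circles) and with 1 library left out (ticks, or diamonds for E3 replicate 3). In E3, Bax crossed from 0.17 to -0.11 without replicate 3, whereas Pmaip1, Bid and Bbc3 kept their sides under every omission.

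The promoters of the 2 genes that fell in E3 are shown next, since Bbc3 is a textbook p53 target. Each is the 250 bases before the canonical transcript's start, from the GRCm39 genome with GENCODE vM39, read along the gene's own strand. Capitals mark a match to the p53 half-site consensus, which the Bid window did not hold. The Bbc3 window is chr7:16042421-16042670 on the plus strand, and that of Bid is chr6:120893828-120894077 on the minus strand. Both windows lie inside the GENCODE vM39 gene records, which begin further upstream, at 16042318 for Bbc3 and 120894171 for Bid.
Bbc3: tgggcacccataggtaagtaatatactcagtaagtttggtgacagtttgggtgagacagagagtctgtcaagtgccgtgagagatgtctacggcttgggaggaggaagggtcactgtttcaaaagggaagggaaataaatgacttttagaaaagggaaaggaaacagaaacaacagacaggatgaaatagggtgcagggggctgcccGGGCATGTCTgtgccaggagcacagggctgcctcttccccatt
Bid: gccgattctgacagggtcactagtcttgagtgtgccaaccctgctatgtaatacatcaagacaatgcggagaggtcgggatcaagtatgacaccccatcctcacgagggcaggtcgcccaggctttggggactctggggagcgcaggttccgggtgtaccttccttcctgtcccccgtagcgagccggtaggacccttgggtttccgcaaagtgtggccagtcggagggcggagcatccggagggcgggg

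The p53 half-site match in Bbc3 began at position -43 from the start of the canonical transcript. Among the 10 genes, Bax (at -198) and Pmaip1 (at -103) also held one, as did 6.72% of 21593 promoter windows of the same length. The FOXO motif GTAAACA was found in Bcl2l11 at -227 and Bak1 at -69, and in 2.72% of all windows. The E-box CACGTG, which contains the HIF core ACGTG, was found in Bnip3 at -90 and Bax at -6, and in 6.26% of all windows, while ACGTG was found in 17.0%. The letters TGATGCAA of the site shared by ATF4 and CHOP were in none of the 10 windows and in 0.885% of all. Both strands were searched. These matches are letters in a window and say nothing about binding in these cells.

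Levels of different genes were compared as CPM per kilobase of annotated exon. In WT, Bax was highest at 71.5 ± 1.8 (SD, n = 3), followed by Mcl1 at 40.1 ± 0.68, Bak1 at 29.9 ± 1.7 and Bcl2l1 at 23.3 ± 0.80. Bnip3 (8.48 ± 2.1) and Bcl2 (8.37 ± 0.049) followed and overlapped. Bcl2l11 (5.07 ± 0.41) and Bbc3 (4.99 ± 0.30) also overlapped, and Bid (2.61 ± 0.16) and Pmaip1 (0.635 ± 0.073) were lowest. In E3, Bak1 (37.4 ± 3.9) and Mcl1 (34.5 ± 1.8) overlapped, and Pmaip1 (1.78 ± 0.11) stood above Bid (1.29 ± 0.14) in all libraries. This order of Pmaip1 and Bid rests on the exon length. With the length of the canonical transcript, the E3 mean was 5.76 for Bid and 1.78 for Pmaip1. In E5 the order was that of WT, except that Bbc3 came before Bcl2l11, whose libraries it overlapped, and Mcl1 and Bak1 overlapped.

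**Figure D4:**
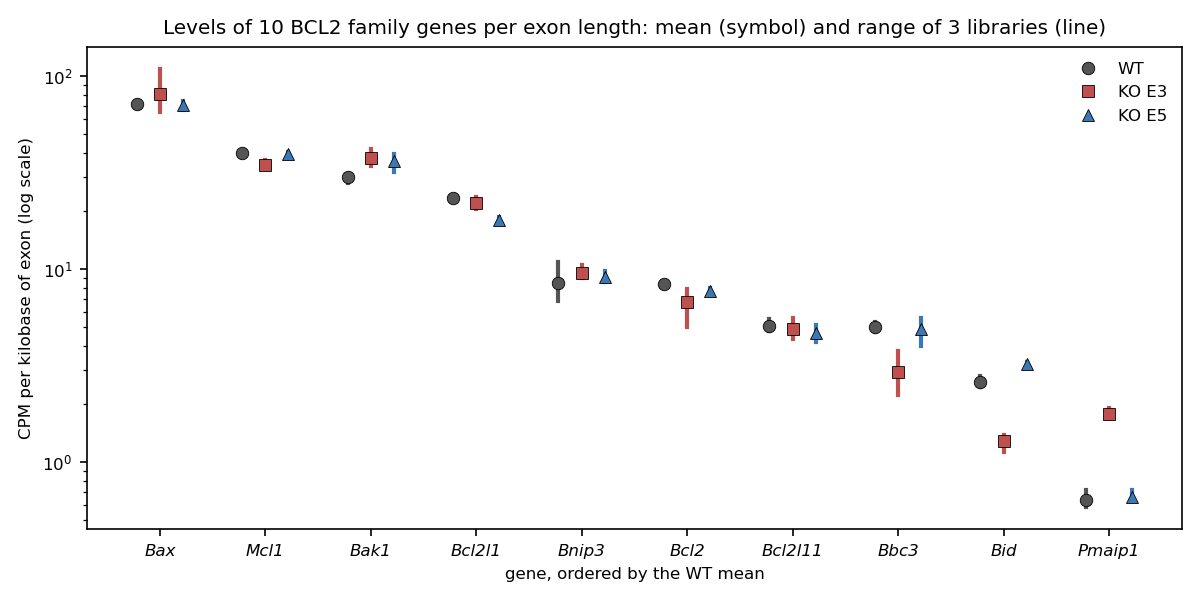
Levels of the 10 genes as CPM per kilobase of exon (y axis, log scale) in WT, KO E3 and KO E5, with symbols at the mean and lines from the lowest to the highest of 3 libraries. Bax was highest in every line at 70.5 to 80.4. With this exon length, Pmaip1 and Bid exchanged the lowest places in E3. With the length of the canonical transcript they did not, the E3 means being 1.78 for Pmaip1 and 5.76 for Bid.

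The anti-apoptotic genes Bcl2, Bcl2l1 and Mcl1 summed to 71.7 ± 1.4 CPM per kilobase in WT, 63.1 ± 2.5 in E3 and 64.8 ± 0.96 in E5 (SD, n = 3). The effectors Bax and Bak1 summed to 101 ± 0.78, 118 ± 24 and 107 ± 7.9. The ratio of the first sum to the second was 0.693, 0.712 and 0.717 in WT, 0.623, 0.602 and 0.427 in E3, and 0.572, 0.606 and 0.651 in E5. All 6 KO ratios were below the WT ratios, and the lowest was that of E3 replicate 3. This is a description of mRNA with no test. The values rest on the exon lengths, and with the length of the canonical transcript the mean ratio was 0.526 in WT, 0.421 in E3 and 0.454 in E5, while Bid moved from place 9 to place 5 in WT.

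A list of 18 further genes was counted next, the rest of the BCL2 family with the BNIP genes Bnip1, Bnip2 and Bnip3l added. Of these, 10 passed the filter on low counts. In E3, 2 of these 10 rose and 3 fell (15.7% and 14.7% of all genes), and in E5, 1 rose and 1 fell (8.96% and 11.7%). Between the clones 2 were higher and 2 lower in E5 (14.7% and 17.2%). The BH3-only gene Bmf, whose protein is known for responding to loss of attachment, rose in both clones. It had 1.64, 1.41 and 1.27 CPM in WT, 14.6, 7.90 and 10.3 in E3, and 2.50, 3.01 and 3.57 in E5, so the 3 lines did not overlap. It rose 7.56-fold in E3 (log2 fold change 2.92 ± 0.25, FDR 2.79e-05) and 2.1-fold in E5 (1.07 ± 0.25, FDR 0.0116), and the clones differed by -1.85 ± 0.23 (FDR 0.000207). Without WT replicate 3 the E5 value was 0.98 with an FDR of 0.0534.

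Bcl2l2 encodes the anti-apoptotic BCL-W and fell in both clones. Its CPM was 55.8, 56.5 and 59.0 in WT, 38.9, 34.7 and 33.0 in E3, and 37.3, 39.9 and 41.7 in E5. The log2 fold change was -0.68 ± 0.09 in E3 (FDR 0.000505) and -0.53 ± 0.09 in E5 (FDR 0.00298), and a difference between the clones was not detected (0.16, 95% interval -0.05 to 0.37, FDR 0.231). Bad, a BH3-only gene tied to growth factor signals, rose in E3 (0.77 ± 0.16, FDR 0.00473). It had 22.3, 20.8 and 18.5 CPM in WT, 28.9, 31.5 and 44.7 in E3, and 22, 19.1 and 19.5 in E5, where the value was -0.02 ± 0.16 (FDR 0.94). The highest Bad value was that of E3 replicate 3, and without it the E3 rise was still called.

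Bcl2l15 fell in E3 (log2 fold change -1.27 ± 0.26, FDR 0.0045) at 16 to 23 counts per library, against 36 to 58 in WT and 61 to 91 in E5. Its E5 value of 0.60 ± 0.23 (FDR 0.0926) passed without E3 replicate 3 (0.61, FDR 0.041). Bcl2l13, a mitochondrial protein with a role in mitophagy, did not pass in E3 (-0.27, FDR 0.195) or E5 (0.27, FDR 0.231), but differed between the clones (0.55 ± 0.15, FDR 0.018). That difference was not called without E5 replicate 1 (0.52, FDR 0.0615) or E5 replicate 2 (0.55, FDR 0.0569), and the Bcl2l13 value in E5 passed without E3 replicate 3 (0.28, FDR 0.00245). Bnip2 fell in E3 by 0.26 on the log2 scale (FDR 0.0405), a call lost when any 1 WT or E5 library or E3 replicate 1 was left out (FDR 0.0565 to 0.14).

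Bnip3l, the closest relative of Bnip3 and likewise a mitophagy receptor, had a log2 fold change of 0.25 ± 0.12 in E3 (FDR 0.138) and 0.11 ± 0.12 in E5 (FDR 0.547). Bnip3l passed in E3 without E3 replicate 3 (0.29, FDR 0.0405) and without WT replicate 1 (0.37, FDR 0.0404). Bok, an effector-like relative of Bax and Bak1, had 41.4, 42.4 and 39.6 CPM in WT, 31.3, 32.4 and 48.2 in E3, and 45.0, 44.3 and 42.9 in E5. The high E3 value was that of replicate 3. Bok did not pass in E3 (-0.14 ± 0.15, FDR 0.514) or E5 (0.10 ± 0.15, FDR 0.697), but without that library it fell in E3 (-0.37, FDR 0.000851) and was higher in E5 than in E3 (0.48, FDR 0.000139). Bcl2l12 and Bnip1 did not pass in either clone, with log2 fold changes from 0.04 to 0.22, and Bnip1 differed between the clones without E3 replicate 3 (0.21, FDR 0.0467). Bcl2a1a, Bcl2a1b, Bcl2a1c, Bcl2a1d, Bcl2l10 and Bcl2l14 had 0 counts in all 9 libraries, which allows at most 0.0659 CPM in any library, counting error only. Bik had at most 1 count and Hrk at most 6 in a library.

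**Figure D5:**
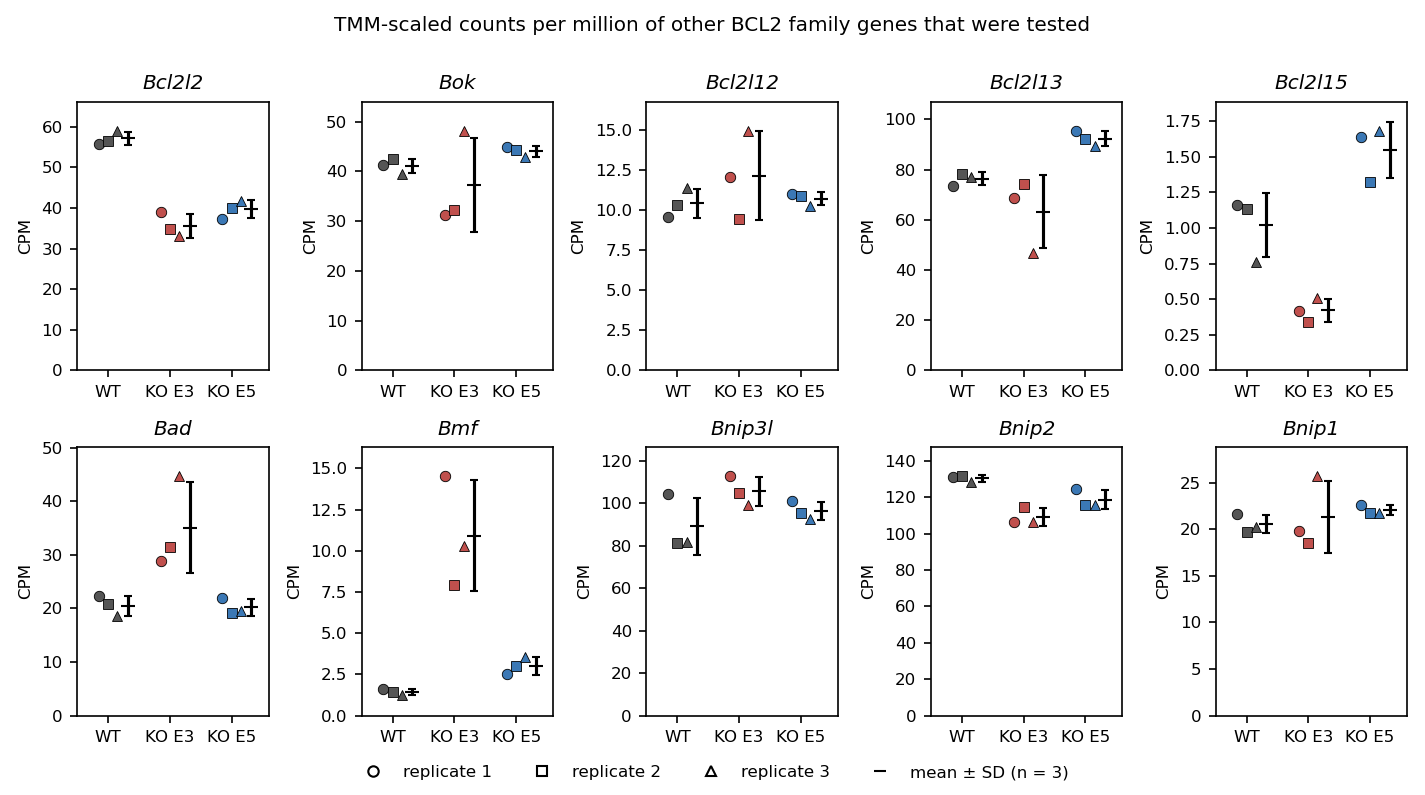
TMM-scaled CPM (y axis of each panel, from 0) of the 10 further BCL2 family and BNIP genes that passed the filter. Libraries are 3 WT, 3 KO E3 and 3 KO E5, with the mean ± SD (n = 3) as black bars. Bmf was above WT and Bcl2l2 below WT in all 6 KO libraries.

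Downstream of the mitochondria, 16 genes of the apoptosome, the caspases and their inhibitors were tested. In E3, 3 rose and 3 fell, and in E5, 3 rose and 4 fell, with a median log2 fold change of 0.10 and -0.05. Here and for the lists that follow, the shares of all genes were 15.7% rising and 14.7% falling in E3 and 8.96% and 11.7% in E5. Without E3 replicate 3, 10 of the 16 were called in E3 and 8 in E5, and 43.2% and 42.0% of all genes. Birc3, which encodes the inhibitor of apoptosis cIAP2, had 117, 100 and 110 counts in WT. It fell in both clones, to 43, 33 and 38 counts in E3 (-1.50 ± 0.23, FDR 0.00102) and to 0, 2 and 1 in E5 (FDR 1.84e-06). The summed E5 count was 0.00907 of the WT level (95% counting interval 0.00186 to 0.0267).

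Of 11 death receptor genes, which act upstream of Bid, 8 were tested; 2 rose and 1 fell in E3, and none passed in E5 by edgeR, where 1 had an unadjusted p below 0.05 and 1 passed by DESeq2. Fas, the receptor for Fas ligand, rose in E3 (2.22 ± 0.40, FDR 0.00239) at 20 to 28 counts per library against 4 to 7 in WT. Its level was 5 to 13 counts in E5 (0.62 ± 0.47, FDR 0.404). Among 12 genes of the mitochondrial membrane pores and of fission and fusion, 2 rose and 2 fell in E3 and 2 rose in E5, none beyond an absolute log2 fold change of 1. Without E3 replicate 3, 7 of the 12 were called in E3 and 8 in E5. Of 14 mitophagy genes tested besides Bnip3, 3 rose and none fell in E3 (median 0.26), and 3 rose and 1 fell in E5 (median 0.10), again none beyond 1. The 3 called in E3 became 7 without E3 replicate 3 and 5 with DESeq2, and the 4 in E5 became 6 without that library.

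Among 6 genes of MCL1 protein turnover and its surroundings that were tested, 1 rose and 3 fell in E3. In E5, 0 passed by edgeR and 0 by DESeq2, and 1 had an unadjusted p below 0.05. Deptor, an mTOR inhibitor, fell in E3 (-1.33 ± 0.15, FDR 0.000167). Of 12 transcriptional regulators of the family that were tested, 1 rose and 5 fell in E3 and 2 fell in E5. The 2 called in E5 became 5 without E3 replicate 3 and 4 with DESeq2, and 0 to 5 over all omissions of 1 library. Ddit3, which encodes the stress factor CHOP, fell to 20.2, 8.20 and 21.3 CPM in E3 and 26.7, 44.1 and 57.2 in E5 from 87.5, 98.8 and 99.7 in WT. Its log2 fold change was -2.53 ± 0.35 in E3 (FDR 0.000519) and -1.16 ± 0.33 in E5 (FDR 0.0331). The E5 call was lost when any 1 WT library, E5 replicate 1 or E5 replicate 2 was left out (FDR 0.0698 to 0.117). Myc fell in E3 (-1.48 ± 0.13, FDR 3.01e-05) and had a value of 0.17 ± 0.12 in E5 (FDR 0.383).

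Since Bnip3 is a hypoxia-inducible gene, 16 other targets of the HIF factors were counted. In E3, 2 rose and 7 fell (median -0.28), and in E5, 5 rose and 5 fell (median -0.13). Vegfa, the angiogenic growth factor, fell in E3 (-1.37 ± 0.15, FDR 0.000155) and in E5 (-0.61 ± 0.15, FDR 0.016), and the E5 call was lost without WT replicate 1 (FDR 0.0533), WT replicate 2 (FDR 0.0548) or E5 replicate 1 (FDR 0.0642). Ndrg1 fell in E3 (-1.30 ± 0.11, FDR 2.56e-05). Car9, a carbonic anhydrase, was below 1 CPM throughout and fell in both clones (-1.07, FDR 0.0232, and -1.06, FDR 0.0326), and Ankrd37 rose in E5 (1.00, FDR 0.0454). The Car9 calls were lost in both clones without WT replicate 2 or 3, in E3 without E3 replicate 1 or 2 and in E5 without E5 replicate 1 or 2 (FDR 0.0591 to 0.138). The Ankrd37 call was lost without WT replicate 2 or 3, E3 replicate 1 or E5 replicate 1 or 2 (FDR 0.0607 to 0.166).

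The genes whose log2 CPM followed Bcl2 most closely over the 9 libraries were Zmiz1, Zfp609 and Kansl1, with Pearson correlations of 0.997, 0.994 and 0.992. For Bnip3 they were Lamtor3, Anapc10 and Tubd1, at 0.843, 0.804 and 0.799. The libraries share their lines, and for Bcl2 the single low value of E3 replicate 3 enters each correlation, so these are descriptions only.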

How the data were processed

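RNA-seq counts were analysed for 3 libraries each of LLC WT, CD47 KO clone E3 and CD47 KO clone E5, which the study describes as independent biological replicates. Reads came from directional poly(A) libraries. Per the labels and the submitters' processing notes, the authors used FastQC, Trimmomatic and STAR with the GRCm39 build, and they deposited raw counts per gene without normalization. The tool that counted reads, whether it used strand and which annotation it read are not given in the sources used here. The authors used DESeq2 for their tests.

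From the deposited counts, edgeR 4.0.16 (limma 3.58.1, R 4.3.3) was run with TMM scaling. filterByExpr (minimum count 10, minimum total 15) kept 14593 of 50813 genes. The 3 lines were fitted together by the quasi-likelihood test, and p-values were adjusted by Benjamini-Hochberg (FDR) over all genes tested. Passing means an FDR under 0.05. Each standard error is the size of the log2 fold change divided by the root of its F statistic. Intervals cover the spread between these libraries. The step was tested on simulated data for the 14593 genes, of which 200 were changed by an absolute log2 fold change of 1 or 2. Of these 200, 166 were recovered with 10 false calls for E3 against WT, and 171 with 8 for E5. Smaller changes and the length trend of E3 replicate 3 were not simulated, so these numbers do not cover them. DESeq2 1.42.0, other scalings and filters, 2-line fits, a replicate block and the omission of each library were alternatives.

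The members and gene lists (16 lists, 142 genes) were chosen with earlier results of these data known. All 10 members and all further family and BNIP genes are named. From other lists, genes that passed in a clone against WT and moved by more than 1 on the log2 scale are named, at most 4 per list and clone, except 1 that is not reported here. For Bcl2 and Bnip3, the 3 most correlated genes are named. Gene coordinates are those of the count table. Overlaps were taken from the same coordinates, with strands from GENCODE vM39. Sequences and exon lengths came from the GRCm39 genome with GENCODE vM39, a release whose ends differ from the table for some genes. Amino acid sequences were not used here.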

Additional observations from a re-analysis of the deposited data

Results flagged for a closer look

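For 8 BCL2 family genes the change from WT differed between the clones. They were 4 of the 10 members and 4 of the 10 further family and BNIP genes tested. The contrast of E5 with E3 tests this directly (edgeR, FDR over all genes tested, 31.9% of which passed). Bid (1.31), Bbc3 (0.73), Bcl2l15 (1.87) and Bcl2l13 (0.55) were higher in E5, in log2 units. Pmaip1 (-1.43), Bmf (-1.85), Bad (-0.80) and Bcl2l1 (-0.28) were lower in E5. The libraries of the clones did not overlap for any of the 8, nor for 44.6% of all genes tested. Because the 8 were chosen by this contrast in the same libraries, that is no separate support. Each KO line is 1 clone, so these differences are between single clones.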

How the results depend on the processing

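Of 480 values for the 10 genes under the alternatives, 435 kept their direction and side of the threshold, 14 lost a call, 16 gained one and 15 changed sign. The falls of Bid and Bbc3 and the rise of Pmaip1 in E3 passed under all 16 alternatives. The number of the 10 genes called in E3 was 3, and 5 with DESeq2 (34.2% of all genes), where Mcl1 and Bak1 also passed. In E5 it was 1, with 2 under DESeq2 (25.2% of all genes) and 3 when only WT and E5 were fitted (46.8%). Leaving out 1 library gave 3 to 5 calls in E3, 0 to 3 in E5 and 2 to 4 between the clones. The 0 in E5 came without WT replicate 2 or 3 or E5 replicate 1 or 2, and the 3 without E3 replicate 3. The 2 between the clones came without E5 replicate 3. Of all genes, 19.3% to 43.2% were then called in E3, 11.9% to 42% in E5 and 21.7% to 44.1% between the clones. Bcl2l1 between the clones was also lost without a filter on low counts (FDR 0.117), in the 2-line fit (FDR 0.115) and with the replicate block (FDR 0.0701).

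Same-numbered libraries did not deviate together (correlations from -0.254 to 0.0993), and in 1 of 18 comparisons a library correlated best with its own number, so the numbers were not taken as pairs. With the replicate block, 3 of the 10 genes were called in E3, 1 in E5 and 3 between the clones. Of all genes, the block called 25.1%, 15.8% and 26.6%. Bnip2 in E3 (FDR 0.0956) and Car9 (FDR 0.0532) and Ankrd37 (FDR 0.0507) in E5 were not called with it. Bnip2 in E3 was also lost with upper-quartile scaling (-0.18, FDR 0.121), without a filter (FDR 0.14) and in the 2-line fit (FDR 0.106), and Ankrd37 in E5 with upper-quartile scaling (FDR 0.0605) and a filter of 10 counts in each library (FDR 0.0545).

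Sign changes were of small values that did not pass in the 9 libraries or in the alternative concerned. Upper-quartile scaling, which moved the median of all genes to 0.0883 in E3 and -0.103 between the clones, gave 0.023 for Bcl2l11 in E3, and -0.0524 for Bnip1 and -0.0800 for Car9 between the clones. For Car9 this was -0.00366 under a filter of 10 counts in each library. With 1 library left out, the values whose sign changed ran, in E3 against WT, from -0.16 to 0.0279 for Bcl2l11, -0.11 to 0.30 for Bax and -0.11 to 0.14 for Bnip1. In E5 against WT they ran from -0.0221 to 0.10 for Bcl2l12, -0.10 to 0.0371 for Bad, -0.00674 to 0.15 for Pmaip1, -0.0388 to 0.32 for Bnip3, -0.12 to 0.10 for Bbc3 and -0.0597 to 0.0254 for Bax. In E5 against E3 they ran from -0.15 to 0.0308 for Bcl2l11, -0.0441 to 0.21 for Bnip1, -0.21 to 0.25 for Car9, -0.12 to 0.0382 for Bak1, -0.32 to 0.10 for Bax, -0.12 to 0.00358 for Bnip3 and -0.33 to 0.00577 for Bcl2l12.

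Levels per length moved with the gene length used, by construction. With the longest coding transcript, the anti-apoptotic to effector ratio was 0.562 in WT and 0.486 in E5, the Mcl1 share of the 10 genes 14.8% in WT, 12.6% in E3 and 14.7% in E5, and the Bax share 44.6%, 47.9% and 44.6%. With the canonical transcript, an alternative chosen after seeing the data, the ratio was 0.526, 0.421 and 0.454, the Mcl1 share 13.6%, 11.6% and 13.4%, and the Bax share 46.1%, 49.9% and 46.0%. The values reported were 20.6%, 17.3% and 20.2% for Mcl1 and 36.7%, 39.4% and 36.3% for Bax.

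Over all genes, 4445 were called in E3 (2875 to 6423 with 1 library left out), 3012 in E5 (1767 to 6246, and 6596 in the 2-line fit) and 4661 between the clones (3235 to 6555). The highest of these left-out counts were without E3 replicate 3. Called genes per list moved by over 1.5 times too when 1 library was left out, for instance from 6 to between 4 and 10 for the caspase list in E3, from 10 to between 3 and 12 for the HIF targets in E5, and from 0 to at most 3 for MCL1 turnover in E5. The mitochondrial membrane list had 1 to 7 calls in E3 and 2 to 8 in E5, mitophagy 2 to 7 and 1 to 6, and the regulators 0 to 5 in E5. Counts under 100 in at least 1 library were behind the values of Pmaip1, Bmf, Bcl2l15, Birc3, Fas, Car9 and Ankrd37.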
